A study of Homo sapiens with 16 samples.

Results

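The genes described here are the Wnt ligands, their receptors and co-receptors, the secreted Wnt antagonists, and 3 intracellular feedback inhibitors of the pathway, AXIN2, NKD1 and NKD2. Members were chosen by gene symbol alone: every protein-coding WNT and FZD gene, LRP5, LRP6, ROR1, ROR2, RYK, DKK1 to DKK4, the SFRP genes, WIF1, AXIN2, NKD1 and NKD2. This rule found 43 of the 34228 genes in the count table, of 46 that GENCODE 44 annotates. SFRP2, SFRP5 and WNT8A were not analysed here. The 43 comprised 18 ligands, 15 receptors or co-receptors, 7 secreted antagonists and 3 feedback inhibitors.

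Wnt proteins are lipid-modified secreted ligands that bind Frizzled (FZD) receptors. With the co-receptors LRP5 and LRP6, they stabilise β-catenin, which then acts with TCF and LEF factors on target genes, among them AXIN2. With ROR1, ROR2 or RYK, ligands such as WNT5A signal without β-catenin and affect cell polarity and movement. SFRP and WIF1 proteins bind the ligands outside the cell, most DKK proteins block LRP5 and LRP6, AXIN2 is a scaffold of the complex that destroys β-catenin, and NKD1 and NKD2 bind Dishevelled, the relay just inside the membrane. In melanoma, β-catenin is known for its part in melanocyte differentiation, and WNT5A for its high level in invasive, poorly differentiated cells.

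The study sequenced polyA RNA of 451Lu-R and 1205Lu-R, human melanoma cell lines made resistant to the BRAF inhibitor PLX4032 by growth in the drug. 451Lu-R is described as MITF high and AXL low, and 1205Lu-R as MITF low and AXL high. Cells were treated for 24 hours with 2.5 μM corin, which inhibits HDAC1, HDAC2 and LSD1 within the CoREST repressor complex, or with the solvent DMSO. The 4 groups, each with 2 libraries, were 451Lu-R with DMSO, 451Lu-R with corin, 1205Lu-R with DMSO and 1205Lu-R with corin, and no PLX4032 is named for them. The titles of these libraries write 451Lu and 1205Lu, and their source names call the cells resistant. No source used here says whether the 2 libraries of a group were separate cultures or whether a line is a clone, so p-values measure only the spread between these libraries, which may be technical. The comparisons ask which genes answer to CoREST inhibition in each cell state, how the untreated states differ, and whether the answers differ between the lines.

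Libraries held 9516687 to 11797788 estimated counts, and 12867 to 14427 genes reached 1 CPM (the gene's counts scaled to a common library total). Counts of replicates differed slightly more than Poisson sampling gives (chi-square per degree of freedom 1.34 to 1.40), so standard errors over the 2 libraries are small. The lines carried the markers of their labels. A list of 7 melanocytic genes (MITF, PMEL, MLANA, TYR, DCT, TYRP1 and SOX10) summed to 13239 to 13311 CPM in 451Lu-R with DMSO and to 7.25 to 8.38 CPM in 1205Lu-R with DMSO, where TYR, TYRP1 and SOX10 were at 0. AXL, EGFR and NGFR summed to 4.53 to 5.07 CPM and to 1051 to 1077 CPM in the same groups. Both lists moved with corin. The melanocytic sum was 11399 to 11441 CPM in 451Lu-R and 16.7 to 19.1 CPM in 1205Lu-R. In 451Lu-R, DCT rose (log2 fold change 0.78), while SOX10 (-1.6), MITF (-1.37), MLANA (-0.7), TYRP1 (-0.55), TYR (-0.37) and PMEL (-0.12) fell. The sum of AXL, EGFR and NGFR was 365 to 373 CPM in 451Lu-R and 765 to 778 CPM in 1205Lu-R. Within the latter sum, NGFR went from 1.28 and 0.828 to 354.7 and 348.1 CPM in 451Lu-R and from 5.6 and 6.12 to 205.9 and 199.0 CPM in 1205Lu-R, where AXL went from 947.5 and 976.3 to 480.1 and 471.1 CPM. With corin, a fibroblast list of 4 genes (COL1A1, DCN, LUM and PDGFRA) went from 50.5 to 54.0 CPM to 153 to 156 CPM in 451Lu-R and from 197 CPM in both libraries to 101 to 104 CPM in 1205Lu-R, where PDGFRA made up most of the sum and COL1A1 went the other way, from 1.27 and 1.04 to 8.62 and 9.09 CPM. Keratinocyte and epithelial markers (KRT5, KRT14, EPCAM, CDH1) summed to at most 6.10 CPM, immune markers (PTPRC, CD14) to at most 1.61 CPM, and endothelial markers (PECAM1, CDH5, VWF) to at most 27.6 CPM in any library. The part of these marker changes in the results below was not tested. In bulk RNA, fewer cells that express a gene and less of its RNA per cell cannot be told apart.

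Of the 43 genes, 17 reached 1 CPM in both DMSO libraries of 451Lu-R, and corin raised 15 of them and lowered 1, RYK. Among all 12746 genes tested at that level, 35.2% rose and 43.9% fell. The median log2 fold change was 1.12 for these members and -0.10 for all such genes. In 1205Lu-R, 24 members reached that level with DMSO, of which 14 rose and 8 fell, while 34.3% of the 12561 genes at that level rose and 43.7% fell. Their median was 0.81, against -0.10 for all such genes. At the threshold of a 4-fold change with an adjusted p under 0.001, 4 of the 17 rose in 451Lu-R (AXIN2, FZD4, FZD8 and NKD1, background 4.23%) and 0 fell (background 3.09%). In 1205Lu-R, 6 of the 24 rose by that threshold (AXIN2, FZD3, FZD8, FZD9, NKD1 and WNT9A, background 4.0%) and 1 fell (WNT5A, background 1.62%). A gene rose or fell here where its adjusted p was under 0.05 in edgeR's quasi-likelihood test, with Benjamini-Hochberg adjustment over all genes tested. The restriction to genes present with DMSO was chosen after the data were seen.

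Without that restriction, 29 of the 43 members passed the filter on low counts in 451Lu-R, of which 27 rose and 1 fell, against a background of 41.3% and 38.6% of 14530 genes. By the 4-fold threshold, 16 of the 29 rose (background 12.4%) and 0 fell (background 2.72%). In 1205Lu-R, 33 passed, of which 23 rose and 8 fell, against 40.4% and 37.8% of 14563 genes. By the 4-fold threshold, 15 of the 33 rose (background 11.3%) and 1 fell (background 1.43%). Many of these members passed the filter only through their counts with corin and so had to differ, and these counts describe the members rather than test them. The 14 members left out in 451Lu-R were DKK2, DKK3, DKK4, FZD9, WNT1, WNT2, WNT2B, WNT3A, WNT5B, WNT7A, WNT8B, WNT9B, WNT10A and WNT10B, and the 10 in 1205Lu-R were DKK4, FZD10, WIF1, WNT1, WNT2, WNT3A, WNT7A, WNT8B, WNT9B and WNT16.

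**Figure D1:**
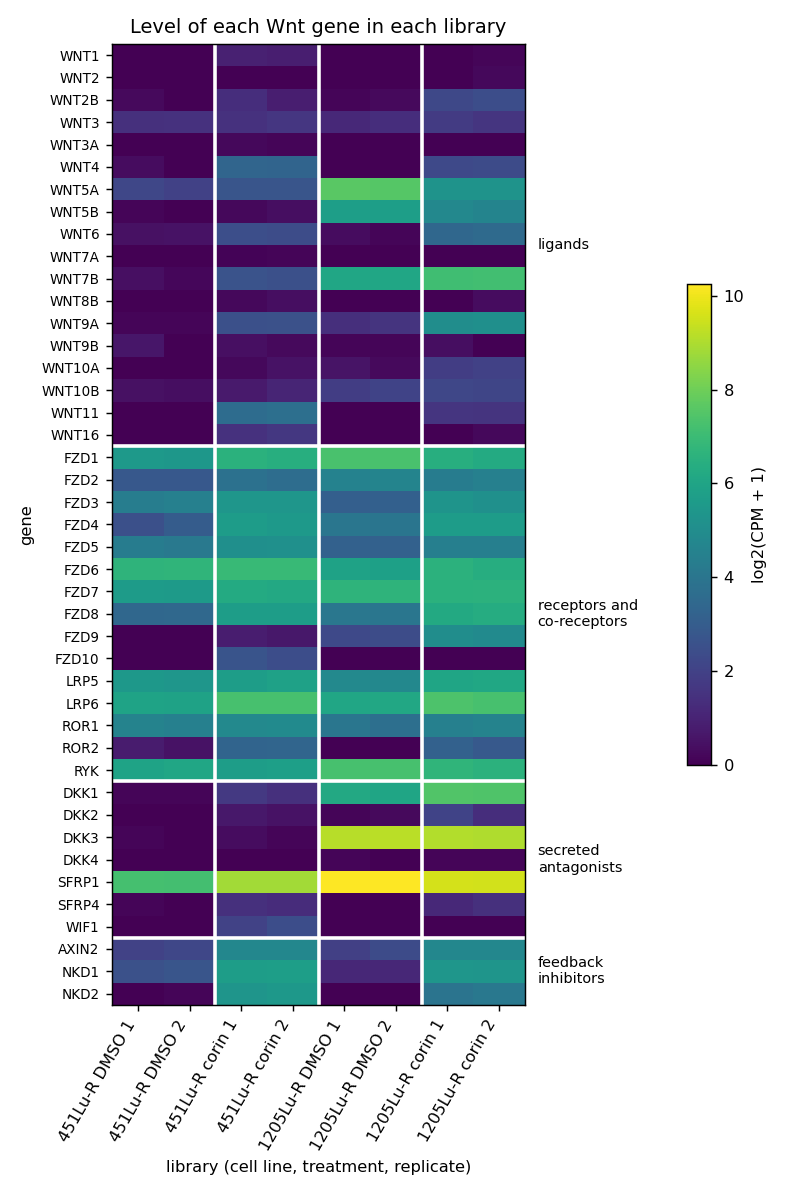
Level of each of the 43 genes (rows) in each of the 8 libraries (columns), as log2(CPM + 1) on the colour scale, with white lines between groups and between roles. Most receptors are lit in all groups (12 of 15 reach 1 CPM in 451Lu-R with DMSO and 13 in 1205Lu-R with DMSO), most ligands are dark with DMSO, and NKD2 is dark with DMSO in both lines and lit with corin, at 39.3 to 43.3 CPM in 451Lu-R and 14.6 to 16.2 CPM in 1205Lu-R.

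Few of the ligand genes were present with DMSO. In 451Lu-R, WNT3 and WNT5A were the ligands, 2 of 18, that reached 1 CPM in both DMSO libraries, and 8 of 18 did so with corin. In 1205Lu-R, the number was 6 with DMSO and 11 with corin. Both libraries of a group listed 8 ligands at 0 in 451Lu-R with DMSO and 8 in 1205Lu-R with DMSO. These lay under the floor of 3 counts per library below which no level is read.

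WNT5A (chromosome 3, 55465715 to 55490539, minus strand, GRCh38), a ligand of the β-catenin-independent branch, was the ligand with the highest level per length in 1205Lu-R with DMSO. Its level was 3.49 and 3.0 CPM in 451Lu-R with DMSO and 5.51 and 5.6 CPM with corin. In 1205Lu-R it was 199.6 and 188 CPM with DMSO and 37.2 and 37.9 CPM with corin. The corin libraries of 1205Lu-R lay below both of its DMSO libraries, and those of 451Lu-R lay above theirs. With DMSO, WNT5A was 63.8-fold higher in 1205Lu-R (log2 difference 6.0 ± 0.087 SE, adjusted p = 8.22e-27). Corin raised it in 451Lu-R (log2 fold change 0.87 ± 0.22 SE, adjusted p = 0.00156). In 1205Lu-R corin lowered it 5.43-fold, or -2.44 ± 0.049 on the log2 scale (adjusted p = 4.77e-21). The 2 responses differed by -3.34 ± 0.20 on the log2 scale (1205Lu-R minus 451Lu-R, adjusted p = 8.27e-12). With corin, 1205Lu-R still held more WNT5A than 451Lu-R held under either treatment.

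WNT5A has 2 starts with a promoter entry in RefSeq (GRCh38.p14), and the 250 bases before each are printed because the gene changed in opposite directions in the 2 lines. Capitals mark matches to the E-box CAGGTG, which reads CACCTG on the opposite strand and is the element that SNAIL and ZEB repressors bind. The letters were also searched for a TCF and LEF element, CTTTG with A or T at each of the next 2 positions, on both strands. The motifs and the genes shown were chosen after the values were seen.
WNT5A, chr3:55487307-55487556, minus strand: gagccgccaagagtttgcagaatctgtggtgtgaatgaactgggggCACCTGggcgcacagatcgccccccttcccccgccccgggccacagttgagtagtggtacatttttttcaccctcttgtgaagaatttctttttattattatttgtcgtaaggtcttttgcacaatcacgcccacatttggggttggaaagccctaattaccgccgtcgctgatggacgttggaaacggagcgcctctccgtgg
WNT5A, chr3:55481399-55481648, minus strand: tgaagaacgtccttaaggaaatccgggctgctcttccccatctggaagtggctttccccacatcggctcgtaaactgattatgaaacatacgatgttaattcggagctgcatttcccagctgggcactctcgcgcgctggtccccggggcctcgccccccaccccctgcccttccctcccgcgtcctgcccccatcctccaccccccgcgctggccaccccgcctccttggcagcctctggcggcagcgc
The window at the upstream start held 1 E-box, at position -204 from the start, and that at the downstream start held 0. Neither held a TCF and LEF match. RefSeq gave 31 windows for 28 of the 43 members. The E-box was in 7 of those 31 (22.6%) and in 17.5% of all 35116 windows of this length, and a TCF and LEF match was in 1 of the 31 (3.23%) and in 12% of all windows. A match of letters is a description and does not show a bound site.

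WNT5B, the closest relative of WNT5A, was also found mainly in 1205Lu-R. The DMSO libraries of 451Lu-R held 1 and 0 estimated counts of it and the corin libraries 2 and 3, too few for a test there. In 1205Lu-R its level was 52.2 and 52.4 CPM with DMSO and 26.8 and 24.0 CPM with corin. It fell with corin 2.17-fold (log2 fold change -1.12 ± 0.074, adjusted p = 6.46e-12). The ratio of counts between the lines with DMSO was 1076, with a 95% counting interval of 192.8 to 42551 that covers counting error only.

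WNT7B, which can act through β-catenin, rose in both lines. It had 0.350 and 0.118 CPM in 451Lu-R with DMSO and 5.13 and 4.69 CPM with corin. In 1205Lu-R it had 65.8 and 66.8 CPM with DMSO and 136.9 and 142.5 CPM with corin. Each corin library lay above both DMSO libraries of its line. The log2 fold change in 451Lu-R was 4.38 ± 0.43 (adjusted p = 1.30e-08) and 5.51 without the first DMSO library, and that in 1205Lu-R was 1.0 ± 0.044 (adjusted p = 4.50e-15). In 451Lu-R, WNT7B passed the filter through its counts with corin and so had to differ. The responses differed (-3.41 ± 0.39, adjusted p = 2.36e-07), from a base of 4 and 1 estimated counts in 451Lu-R with DMSO.

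A group of ligands went from few or 0 counts to several CPM with corin. WNT11, known in embryonic cell movements, had 0 counts in the 4 DMSO libraries, and 11.5 and 12.3 CPM in 451Lu-R and 2.0 and 1.89 CPM in 1205Lu-R with corin. Against the floor of 3 counts per library it was at least 40.7-fold higher in 451Lu-R and at least 7.02-fold higher in 1205Lu-R. WNT4, known for its part in kidney and ovary development, had 0.275 and 0 CPM in 451Lu-R with DMSO and 9.24 and 8.80 CPM with corin, a count ratio of 62.0 (95% counting interval 20.9 to 303). In 1205Lu-R it went from 0 counts to 3.78 and 4.05 CPM, at least 14.1-fold higher.

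WNT6 and WNT9A rose in both lines as well. WNT6 had 0.367 and 0.414 CPM in 451Lu-R with DMSO, 4.49 and 4.20 CPM with corin, 0.271 and 0.0942 CPM in 1205Lu-R with DMSO and 9.77 and 10.6 CPM with corin. Its log2 fold change was 3.54 ± 0.38 in 451Lu-R (adjusted p = 6.08e-08), and its count ratio in 1205Lu-R was 55.5 (95% counting interval 21.3 to 205.4). In both lines WNT6 passed the filter through its counts with corin and so had to differ. WNT9A had 0.0917 and 0.103 CPM in 451Lu-R with DMSO, 4.66 and 4.90 CPM with corin, 1.63 and 1.88 CPM in 1205Lu-R with DMSO and 31.3 and 33.8 CPM with corin. It was already higher in 1205Lu-R with DMSO, at a count ratio of 18.0 (95% counting interval 4.66 to 154.2). Its log2 fold change in 1205Lu-R was 4.14 ± 0.16 (adjusted p = 2.91e-16), and its count ratio in 451Lu-R was 49.1 (13.2 to 410.5). The difference in the response of WNT9A between the lines did not pass the test (-1.45 ± 0.70, adjusted p = 0.127).

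WNT16, WNT10A and WNT2B rose past the test in a single line. Each passed the filter there through its counts with corin and so had to differ. The difference between the lines did not pass the test for WNT10A (adjusted p = 0.375) or WNT2B (0.612), and for WNT16 it could not be estimated. WNT16 had 0 counts with DMSO in both lines, 1.78 and 2.20 CPM with corin in 451Lu-R (at least 6.80-fold higher) and 0 and 0.180 CPM with corin in 1205Lu-R. WNT10A in 1205Lu-R had 0.452 and 0.188 CPM with DMSO and 2.63 and 2.97 CPM with corin (log2 fold change 3.0 ± 0.47, adjusted p = 5.24e-06, and 3.73 without the first DMSO library), and at most 0.400 CPM in 451Lu-R. WNT2B had 0.0904 and 0.193 CPM with DMSO and 3.68 and 4.34 CPM with corin in 1205Lu-R, a count ratio of 29.1 (95% counting interval 9.61 to 143.9), and was under the filter in 451Lu-R, with a count ratio of 12.7 (3.20 to 110.5). ST7L, which shares exonic sequence with WNT2B on the opposite strand, had 2.41 to 11.7 CPM and was lower with corin in both lines, so reads of the overlap are uncertain.

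WNT3 and WNT10B were present without a change that passed the test. WNT3 lay between 1.27 and 2.42 CPM in all 8 libraries, with an adjusted p of 0.457 for corin in 451Lu-R and 0.136 in 1205Lu-R. WNT10B lay between 2.62 and 3.57 CPM in 1205Lu-R (adjusted p = 0.509 for corin) and was 8.91-fold higher there than in 451Lu-R with DMSO (adjusted p = 5.20e-07). Its level in 451Lu-R with DMSO was 0.367 and 0.31 CPM, so the size of that difference is uncertain. WNT10B passed the filter between the lines through its counts in 1205Lu-R and so had to differ. The other 6 ligands (WNT1, WNT2, WNT3A, WNT7A, WNT8B and WNT9B) stayed under 1 CPM in all libraries, and WNT1 was the highest of them with corin in 451Lu-R, at 0.932 and 0.800 CPM from 0 counts with DMSO.

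Levels of different genes are compared per kilobase of exons. The summed ligand level rose from 1.28 ± 0.183 CPM per kb (SD, n = 2) in 451Lu-R with DMSO to 14.6 ± 0.29 with corin. In 1205Lu-R it was 54.5 ± 0.859 with DMSO and 57.7 ± 1.36 with corin, while its make-up changed. WNT5A held 49.7% ± 1.31 of the ligand level in 1205Lu-R with DMSO, followed by WNT7B with 23.9% and WNT5B with 22.6%. With corin, WNT7B held 47.7% ± 0.22, WNT9A 14.1%, and WNT5B and WNT6 10.4% and 10.3%, which do not differ beyond their SD. In 451Lu-R with corin, the leading ligands were WNT11 with 34.5% ± 0.891, WNT6 with 17.4% and WNT4 with 13.3%.

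**Figure D2:**
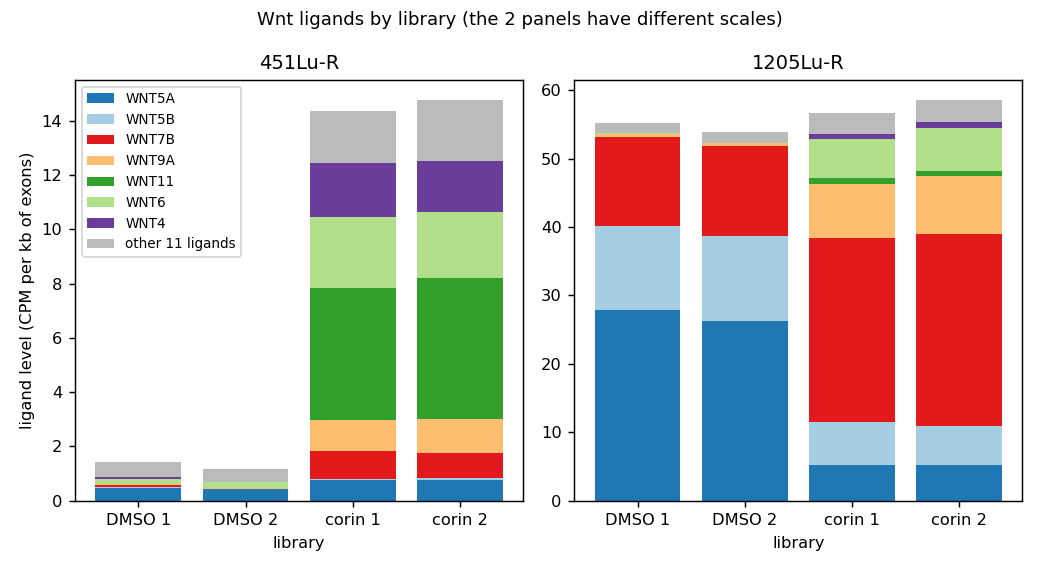
Ligand level in each library as CPM per kb of exons, stacked by gene, for 451Lu-R on the left and, on a larger scale, 1205Lu-R on the right. The 451Lu-R bars go from about 1.28 to 14.6 and are led by WNT11 with corin, while the 1205Lu-R bars keep a height of 54.5 and 57.7 as WNT5A shrinks and WNT7B and WNT9A grow.

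Receptors were present before treatment. Of 15, 12 reached 1 CPM in both DMSO libraries of 451Lu-R and 13 in 1205Lu-R, and FZD10 with ROR2, plus FZD9 in 451Lu-R, did not. Per kb of exons, the summed receptor level was 74.4 ± 0.169 CPM per kb (SD, n = 2) in 451Lu-R with DMSO and 125.5 ± 0.725 with corin, and 106.3 ± 0.451 and 146.6 ± 2.87 in 1205Lu-R. FZD6 led in 451Lu-R with DMSO, at 33.7% of that sum, and FZD1 and FZD7 had the largest shares in 1205Lu-R with DMSO, at 21.7% and 20.7%. With the longest transcript as length, RYK came first there with 24.3%, ahead of FZD1 with 19.4%. Among receptors with at least 1 CPM in both DMSO libraries, corin raised 11 of 12 in 451Lu-R and lowered RYK (background 35.2% and 43.9%). In 1205Lu-R it raised 9 of 13 and lowered FZD1, FZD2, FZD7 and RYK (background 34.3% and 43.7%). FZD10 and ROR2 in 451Lu-R and ROR2 in 1205Lu-R passed the filter through their counts with corin.

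The co-receptors LRP5 and LRP6, which bring a Frizzled receptor into the β-catenin branch, rose in both lines. LRP6 had 60.2 and 59.7 CPM in 451Lu-R with DMSO and 152.1 and 154.7 CPM with corin, and 66.5 and 70.5 CPM and 168.9 and 155.0 CPM in 1205Lu-R. Its log2 fold changes were 1.45 ± 0.044 (adjusted p = 9.76e-17) and 1.16 ± 0.048 (adjusted p = 1.37e-15). LRP5 had 43.7 and 40.8 CPM in 451Lu-R with DMSO and 50.9 and 56.8 CPM with corin, and 27.4 and 26.9 CPM and 63.9 and 68.6 CPM in 1205Lu-R. Its log2 fold change was 0.44 ± 0.072 in 451Lu-R and 1.22 ± 0.068 in 1205Lu-R, a difference that passed the test (0.74 ± 0.10, adjusted p = 2.34e-06).

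Among the Frizzled receptors, FZD4 and FZD8 changed most in 451Lu-R of those present with DMSO. FZD4, the receptor for the ligand Norrin in retinal vessels, had 4.70 and 6.83 CPM in 451Lu-R with DMSO and 49.2 and 44.9 CPM with corin, and 15.5 and 14.8 CPM and 50.1 and 50.4 CPM in 1205Lu-R. The lines differed 2.86-fold with DMSO, and with corin all 4 libraries lay between 44.9 and 50.4 CPM. Its log2 fold changes were 3.15 ± 0.12 (adjusted p = 4.61e-15) and 1.65 ± 0.081 (adjusted p = 3.46e-14). FZD8 had 9.63 and 10.1 CPM in 451Lu-R with DMSO and 50.8 and 51.2 CPM with corin, and 15.6 and 15.5 CPM and 73.4 and 80.6 CPM in 1205Lu-R. Its responses of 2.47 ± 0.088 and 2.23 ± 0.077 did not differ between the lines beyond the test's threshold (-0.27 ± 0.13, adjusted p = 0.0979). FZD4 shares exonic sequence on the opposite strand with PRSS23, which had 72.3 to 116.1 CPM in 451Lu-R and 435.9 to 588.3 CPM in 1205Lu-R and was lower with corin in both, and since no source used here states whether strand was kept, reads of the overlap cannot be assigned with certainty.

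FZD3, FZD5 and FZD6 rose in both lines too. FZD3, which acts in axon guidance and cell polarity, had 19.1 and 21.2 CPM in 451Lu-R with DMSO and 41.3 and 40.3 CPM with corin, and 7.62 and 7.87 CPM and 38.6 and 34.1 CPM in 1205Lu-R. Its response was larger in 1205Lu-R, with log2 fold changes of 1.12 ± 0.082 and 2.15 ± 0.11 and a difference of 0.99 ± 0.14 (adjusted p = 4.99e-06). FZD5 had 18.9 and 16.8 CPM in 451Lu-R with DMSO and 33.4 and 34.7 CPM with corin, and 8.13 and 8.19 CPM and 20.6 and 20.8 CPM in 1205Lu-R, with log2 fold changes of 1.03 ± 0.088 and 1.27 ± 0.12. FZD6, a polarity receptor, changed least of the 3, from 101.5 and 102.5 CPM to 118.6 and 118.3 CPM in 451Lu-R (0.32 ± 0.041) and from 58.8 and 55.2 CPM to 96.0 and 83.0 CPM in 1205Lu-R (0.57 ± 0.061). The lncRNA BAALC-AS1, opposite FZD6 with shared exonic sequence, had 6.52 to 23.1 CPM and was higher with corin in both lines.

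FZD1, FZD2 and FZD7, a group of closely related receptors, went opposite ways: corin raised them in 451Lu-R and lowered them in 1205Lu-R. FZD1 had 44.2 and 42.3 CPM in 451Lu-R with DMSO and 91.9 and 84.8 CPM with corin, and 159.8 and 158.9 CPM and 84.1 and 75.8 CPM in 1205Lu-R. The corin libraries of the 2 lines thus lay together between the DMSO libraries of each. Its log2 fold changes were 1.13 ± 0.060 (adjusted p = 1.06e-12) and -1.07 ± 0.044 (adjusted p = 1.38e-15), and their difference was -2.24 ± 0.078 (adjusted p = 6.93e-16). FZD7 went from 48.8 and 47.6 to 75.1 and 72.6 CPM in 451Lu-R (0.72 ± 0.058) and from 100.5 and 101.7 to 91.8 and 96.3 CPM in 1205Lu-R (-0.17 ± 0.044, adjusted p = 0.00102). FZD2 went from 6.15 and 6.14 to 13.3 and 11.7 CPM in 451Lu-R (1.13 ± 0.15) and from 22.5 and 23.5 to 18.7 and 21.2 CPM in 1205Lu-R (-0.27 ± 0.098, adjusted p = 0.0163). The fall of FZD2 was lost with DESeq2 (adjusted p = 0.10), with scaling by library size (0.0749) and without the first corin library of 1205Lu-R (0.159).

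FZD9 and FZD10 were each found mainly in 1 line. In 1205Lu-R, FZD9 had 3.80 and 4.24 CPM with DMSO and 31.4 and 28.7 CPM with corin (log2 fold change 2.83 ± 0.13, adjusted p = 1.69e-14), and in 451Lu-R 0 counts with DMSO and 0.763 and 0.600 CPM with corin. FZD10 had 0 counts in the 4 libraries of 1205Lu-R and in both DMSO libraries of 451Lu-R, and 5.26 and 4.30 CPM in 451Lu-R with corin, at least 16.3-fold higher. The difference in the response of FZD10 could not be estimated with edgeR, since all 4 libraries of 1205Lu-R were at 0. DESeq2 gave an adjusted p of 0.00658.

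ROR1, ROR2 and RYK, tyrosine kinase-like receptors of Wnt ligands, did not move together. ROR2, a receptor for WNT5A, had 0.734 and 0.414 CPM in 451Lu-R with DMSO and 8.98 and 9.10 CPM with corin (log2 fold change 4.03 ± 0.29, adjusted p = 1.26e-10). In 1205Lu-R it had 0 counts with DMSO and 8.09 and 6.30 CPM with corin, at least 26.0-fold higher. In 1205Lu-R, ROR2 was thus at 0 counts in the libraries where WNT5A was highest. ROR1 went from 22.7 and 21.1 to 27.0 and 28.9 CPM in 451Lu-R (0.44 ± 0.087) and from 15.2 and 12.4 to 21.0 and 23.2 CPM in 1205Lu-R (0.61 ± 0.11). RYK went from 60.6 and 65.4 to 51.4 and 53.6 CPM in 451Lu-R (-0.16 ± 0.063, adjusted p = 0.0225) and from 152.9 and 151.7 to 103.2 and 94.2 CPM in 1205Lu-R (-0.70 ± 0.042, adjusted p = 1.27e-12). The fall of RYK in 451Lu-R was lost with DESeq2 (adjusted p = 0.148), without the second DMSO library (0.156) and without the first corin library (0.132) of that line.

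Of the 7 secreted antagonists, 1 reached 1 CPM in both DMSO libraries of 451Lu-R and 3 in those of 1205Lu-R. SFRP1, which binds Wnt ligands, was the most abundant member per length in every group. It had 149.3 and 144.6 CPM in 451Lu-R with DMSO and 455.9 and 460.9 CPM with corin. In 1205Lu-R it had 1221 and 1209 CPM with DMSO and 771.5 and 760.0 CPM with corin. The lines thus moved toward each other without meeting, from an 8.89-fold difference with DMSO (log2 3.15 ± 0.027, adjusted p = 1.72e-31). SFRP1 rose 3.34-fold in 451Lu-R (log2 1.74 ± 0.029, adjusted p = 8.25e-21) and fell 1.67-fold in 1205Lu-R (log2 -0.74 ± 0.020, adjusted p = 1.08e-18), and the responses differed by -2.52 ± 0.041 (adjusted p = 2.49e-21).

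DKK1, the LRP5 and LRP6 antagonist that is itself a known target of β-catenin, was mainly found in 1205Lu-R. It had 1 estimated count in each DMSO library of 451Lu-R and 2.29 and 1.70 CPM with corin, a count ratio of 20.8 (95% counting interval 5.41 to 176.7). In 1205Lu-R it had 71.1 and 63.8 CPM with DMSO and 174.0 and 173.8 CPM with corin (log2 fold change 1.29 ± 0.045, adjusted p = 7.03e-17). Corin thus left DKK1 far lower in 451Lu-R than in 1205Lu-R with DMSO. The lncRNA PRKG1-AS1, which shares exonic sequence with DKK1 on the opposite strand, had 1.23 to 2.91 CPM in all libraries. Of the 31 windows, the one before the DKK1 start was the window with TCF and LEF letters, at positions -95 and -76, marked in capitals.
DKK1, chr10:52314031-52314280, plus strand: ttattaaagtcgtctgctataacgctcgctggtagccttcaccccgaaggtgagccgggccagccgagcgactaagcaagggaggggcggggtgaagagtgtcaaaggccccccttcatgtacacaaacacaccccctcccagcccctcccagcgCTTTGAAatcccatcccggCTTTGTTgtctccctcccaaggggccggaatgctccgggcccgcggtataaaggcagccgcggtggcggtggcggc

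DKK3, a member of the DKK family whose part in Wnt signalling is less settled, was likewise found mainly in 1205Lu-R. It had 565.8 and 579.1 CPM there with DMSO and 532.5 and 525.5 CPM with corin (log2 fold change -0.19 ± 0.027, adjusted p = 1.81e-06), and at most 0.254 CPM in any library of 451Lu-R. USP47, which shares exonic sequence with it on the opposite strand, had 57.7 to 62.6 CPM in 451Lu-R and 96.1 to 120.6 CPM in 1205Lu-R. DKK2 had 0.0904 and 0.188 CPM with DMSO and 3.15 and 1.53 CPM with corin in 1205Lu-R, a count ratio of 16.5 (95% counting interval 5.30 to 82.7). DKK4 stayed at or under 1 estimated count in all libraries.

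Antagonists that bind the ligands appeared with corin from near 0. WIF1 had 0 counts in 451Lu-R with DMSO and 3.05 and 4.30 CPM with corin, at least 12.6-fold higher, and 0 counts in all 4 libraries of 1205Lu-R. SFRP4 had 0.0917 and 0 CPM with DMSO and 1.70 and 1.5 CPM with corin in 451Lu-R, a count ratio of 33 (95% counting interval 5.55 to 1341), and in 1205Lu-R 0 counts with DMSO and 1.26 and 1.71 CPM with corin, at least 5.37-fold higher. Per kb, SFRP1 held 99.8% of the summed antagonist level in 451Lu-R with DMSO and 96.8% with corin. In 1205Lu-R its share was 76.6% ± 0.241 with DMSO and 56.7% ± 0.127 with corin, while that of DKK1 went from 9.06% ± 0.602 to 27.4% ± 0.203.

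The feedback inhibitors rose in both lines, all 3 by the 4-fold threshold (background 12.4% for 451Lu-R, 11.3% for 1205Lu-R). NKD2 passed the filter of each line through its counts with corin and so had to differ. AXIN2 and NKD1 had at least 1 CPM in every DMSO library. Among genes present with DMSO, the background was 4.23% for 451Lu-R and 4.0% for 1205Lu-R. AXIN2 had 3.12 and 3.52 CPM in 451Lu-R with DMSO and 25.8 and 26.2 CPM with corin, and 2.80 and 4.14 CPM and 26.2 and 25.8 CPM in 1205Lu-R. Its log2 fold changes were 3.07 ± 0.14 (adjusted p = 6.56e-14) and 2.83 ± 0.15 (adjusted p = 1.34e-13). Neither the lines with DMSO (0.17 ± 0.26, adjusted p = 0.546) nor the responses (-0.27 ± 0.24, adjusted p = 0.394) differed beyond the test's threshold. AXIN2 shares exonic sequence on the same strand with the protein-coding gene ENSG00000266076, which had at most 0.207 CPM.

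NKD1 had 4.90 and 5.48 CPM in 451Lu-R with DMSO and 51.6 and 53.1 CPM with corin, and 1.23 and 1.20 CPM and 40.9 and 39.8 CPM in 1205Lu-R. It was 3.83-fold lower in 1205Lu-R with DMSO (adjusted p = 8.20e-07), and the lines lay closer together with corin. Its log2 fold changes were 3.44 ± 0.10 (adjusted p = 9.91e-17) and 4.93 ± 0.15 (adjusted p = 9.66e-18), and the difference of 1.45 ± 0.24 passed the test (adjusted p = 3.65e-05).

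NKD2 had the largest count ratio with corin among members at the floor with DMSO. In 451Lu-R the DMSO libraries held 0 and 1 estimated counts of it and the corin libraries 464 and 433, a count ratio of 846 (95% counting interval 151.5 to 33463). In 1205Lu-R both DMSO libraries held 0 counts and the corin libraries 139 and 180, a level at least 55.6-fold higher. The size of the difference between lines rests on groups at the floor and did not pass the test (adjusted p = 0.559). Per kb, NKD2 held 63.9% of the summed level of the 3 genes in 451Lu-R with corin and 41.9% in 1205Lu-R, and that sum was 0.956 ± 0.103 and 22.2 ± 1.08 CPM per kb (SD, n = 2) in 451Lu-R with DMSO and corin, and 0.738 ± 0.181 and 12.6 ± 0.291 in 1205Lu-R. The window before the NKD2 start, shown because the gene went from near 0 in both lines, held 2 E-boxes, at positions -154 and -138. RefSeq windows for AXIN2, NKD1 and SFRP1 were not used here.
NKD2, chr5:1008552-1008801, plus strand: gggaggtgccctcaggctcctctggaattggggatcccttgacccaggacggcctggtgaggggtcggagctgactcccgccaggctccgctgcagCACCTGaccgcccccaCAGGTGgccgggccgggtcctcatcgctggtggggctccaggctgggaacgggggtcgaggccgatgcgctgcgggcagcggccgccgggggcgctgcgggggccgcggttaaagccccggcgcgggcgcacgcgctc

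**Figure D3:**
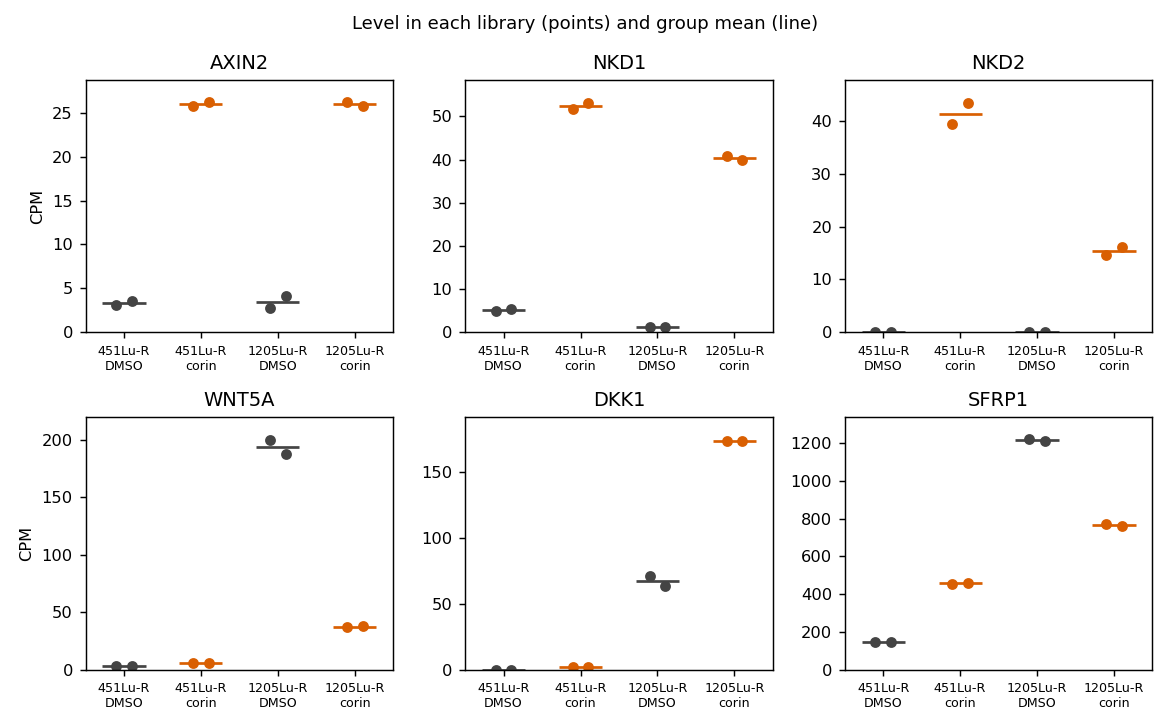
Level in CPM of AXIN2, NKD1, NKD2, WNT5A, DKK1 and SFRP1 in each library (points, grey for DMSO and orange for corin) with the mean of the 2 libraries (line), each panel on its own scale from 0. AXIN2 reaches 25.8 to 26.2 CPM with corin in both lines, WNT5A falls in 1205Lu-R from 199.6 and 188 to 37.2 and 37.9 CPM, and SFRP1 rises in 451Lu-R and falls in 1205Lu-R.

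Set side by side, 17 members had at least 1 CPM in all 4 DMSO libraries and were tested in both lines, as were 11439 genes in all. Of the 17, 10 rose in both lines (AXIN2, FZD3, FZD4, FZD5, FZD6, FZD8, LRP5, LRP6, NKD1 and ROR1), where 23.7% of these genes did. RYK fell in both (32.9% of these genes), and WNT3 passed in neither. The remaining 5 (FZD1, FZD2, FZD7, SFRP1 and WNT5A) were raised in 451Lu-R and lowered in 1205Lu-R, where 6.29% of these genes were. The reverse pattern was seen in 0 of the 17 and in 4.07% of these genes. Without that restriction, 26 members were tested in both lines and 19 rose in both (28.8% of 13200 genes). The added 9 (DKK1, NKD2, ROR2, SFRP4, WNT4, WNT6, WNT7B, WNT9A and WNT11) were under 1 CPM with DMSO in at least 1 line and passed its filter through their counts with corin, so they had to differ.

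With DMSO, 24 members passed the filter in the comparison of the lines, and 16 were higher in 1205Lu-R (41.0% of 14104 genes) and 6 lower (41.5%). By the 4-fold threshold, 10 were higher in 1205Lu-R (10.1%) and 0 lower (10.6%). The 10 were WNT5A, WNT5B, WNT7B, WNT9A, WNT10B, FZD2, FZD9, DKK1, DKK3 and SFRP1. Of these, WNT5B, WNT7B, WNT9A, WNT10B, FZD9, DKK1 and DKK3 had at most 4 estimated counts in each DMSO library of 451Lu-R. They passed the filter through their counts in 1205Lu-R and so had to differ, and the counts of higher members describe rather than test them. The 6 that were lower were FZD3, FZD5, FZD6, LRP5, ROR1 and NKD1, at 1.45-fold (LRP5) to 3.83-fold (NKD1). No ligand or antagonist was among them, an outcome largely set by the filter. In 451Lu-R with DMSO, 2 of 18 ligands and 1 of 7 antagonists reached 1 CPM in both libraries.

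The difference in response was tested for 36 members and passed for 17, where 49.7% of 16062 genes did. The response was lower in 1205Lu-R for 11 of them (27.1% of all genes) and higher for 6 (22.6%), and by the 4-fold threshold lower for 5 (DKK1, FZD1, SFRP1, WNT5A and WNT7B, 3.13%) and higher for 0 (2.43%). Of these 5, DKK1 had 1 and 1 and WNT7B 3.8 and 1.1 estimated counts in 451Lu-R with DMSO, so the sizes of their differences are uncertain. Under scaling by library size alone, the response was lower for 10 members and higher for 7. That scaling moved the split of all called genes from 45.4% to 64.0% higher in 1205Lu-R, and the median over all genes from -0.013 to 0.196.

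**Figure D4:**
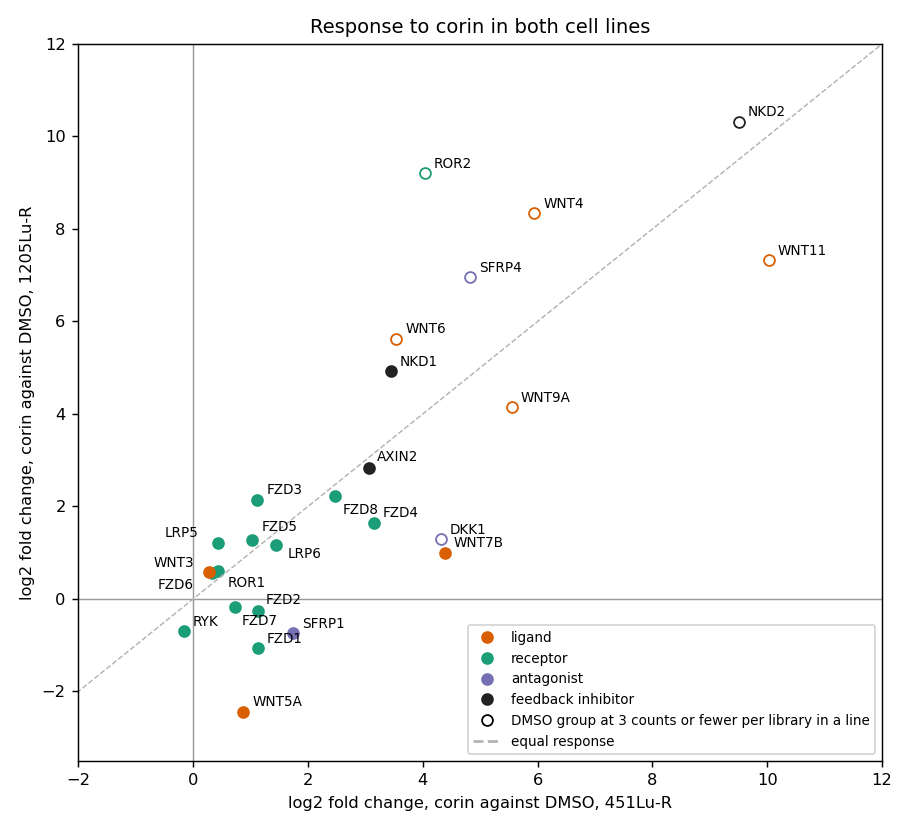
Log2 fold change of corin against DMSO in 451Lu-R (horizontal axis) and 1205Lu-R (vertical axis) for the 26 members tested in both lines, coloured by role. Open circles mark genes whose DMSO group had 3 counts or fewer per library in a line, so that their position depends on the fit, and the dashed line marks an equal response. WNT5A, SFRP1, FZD1, FZD2 and FZD7 lie to the right of 0 and below 0, and AXIN2 lies near the dashed line at 3.07 and 2.83.

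The rest of the pathway was read from 4 gene lists, counted first over the genes with at least 1 CPM in both DMSO libraries of the line. Among all genes at that level in 451Lu-R, the share that rose was 35.2% and the share that fell 43.9%. For 1205Lu-R the shares were 34.3% and 43.7%, and the median log2 fold change over these genes was -0.10 in each line. Of 25 receptor modulators, which make, release, amplify or limit the Wnt signal at the membrane, 14 were at that level in 451Lu-R, of which 9 rose and 0 fell (median 0.67). In 1205Lu-R 11 were, of which 8 rose and 1 fell (median 0.44). Over all tested in 451Lu-R, 11 of 16 rose (background 41.3%), and for 1205Lu-R the count was 14 of 17 (background 40.4%). The former count includes RSPO1 and NOTUM, and the latter LGR5, RSPO3, NOTUM, RNF43, APCDD1 and KREMEN2. These passed the filter through their counts with corin and so had to differ. The R-spondins, which strengthen Wnt signals through LGR receptors, passed the test in different lines, though the difference in response did not pass for RSPO2 (adjusted p = 0.803) or RSPO3 (0.564) and could not be estimated for RSPO1. RSPO2 went from 1.08 and 1.04 to 16.9 and 14.6 CPM and RSPO3 from 0.271 and 0.282 to 7.04 and 8.01 CPM in 1205Lu-R, and RSPO1 from 0 counts to 1.53 and 1.70 CPM in 451Lu-R. LGR5, an R-spondin receptor and stem cell marker, had 0 and 0.0942 CPM with DMSO and 2.10 and 1.98 CPM with corin in 1205Lu-R, and 0 counts in all libraries of 451Lu-R. NOTUM, an enzyme that strips the lipid from Wnt ligands, rose from 0.0917 and 0.414 to 2.29 and 2.10 CPM in 451Lu-R and from 0 counts to 1.89 and 2.16 CPM in 1205Lu-R. TPBG, a Wnt inhibitor at the membrane, went from 3.67 and 3.52 to 26.2 and 22.8 CPM in 451Lu-R and from 153.1 and 155.7 to 118.0 and 125.9 CPM in 1205Lu-R.

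All 32 cytoplasmic and nuclear core genes were at that level in both lines. Of these, 15 rose and 11 fell in 451Lu-R (median 0.10), and 9 rose and 20 fell in 1205Lu-R (median -0.29). By the 4-fold threshold 2 of the 32 rose in each line (background 4.23% for 451Lu-R and 4.0% for 1205Lu-R). These counts lie near the background. In 451Lu-R, TLE4, a co-repressor of TCF factors, went from 3.12 and 3.83 to 44.5 and 45.6 CPM, and TCF7 from 2.62 and 1.86 to 22.4 and 23.6 CPM. In 1205Lu-R TCF7 went from 6.23 and 5.27 to 23.1 and 25.6 CPM, and APC2, a relative of the destruction complex protein APC, from 6.33 and 5.18 to 39.0 and 36.2 CPM. LEF1, singled out after its values were seen, fell in both lines, from 140.7 and 144.1 to 64.8 and 64.5 CPM in 451Lu-R (log2 fold change -1.04 ± 0.044) and from 32.3 and 33 to 17.8 and 17.5 CPM in 1205Lu-R (-0.96 ± 0.088). The 2 factors TCF7 and LEF1 thus changed in opposite directions in each line.

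Of 13 planar polarity genes, 12 were at 1 CPM or more with DMSO in 451Lu-R, with 6 up and 4 down (median 0.20), and 11 in 1205Lu-R, with 4 up and 4 down (median -0.05). The share that rose in 1205Lu-R, 4 of 11, lies near the 34.3% of all genes at that level. That in 451Lu-R, 6 of 12, lies above the 35.2% there, in a short list. CELSR2 and VANGL2, both core polarity proteins, rose by the 4-fold threshold in 1205Lu-R, 2 of the 12 tested (background 11.3%). CELSR2 went from 4.16 and 3.58 to 56.3 and 58.9 CPM and VANGL2 from 0.904 and 1.13 to 4.73 and 8.10 CPM. VANGL2 was under 1 CPM in a DMSO library, passed the filter through its counts with corin and so had to differ. Of 13 genes known as β-catenin targets, 7 were at that level in 451Lu-R, of which 5 rose and 1 fell (median 0.92), and 6 in 1205Lu-R, of which 2 rose and 3 fell (median -0.04). Over all tested in 451Lu-R, 7 of 9 rose (background 41.3%), among them BMP4 and NOTUM, which passed the filter through their counts with corin. For 1205Lu-R the count was 8 of 12 (background 40.4%), where 6 of the 8 were under 1 CPM in a DMSO library. CCND1, a driver of the cell cycle, went from 341.6 and 325.0 to 1252 and 1259 CPM in 451Lu-R and from 1006 and 987.2 to 869.8 and 853.5 CPM in 1205Lu-R. BMP4, a TGF-β family ligand, went from 0 counts to 5.76 and 2.90 CPM in 451Lu-R and from 0.723 and 1.69 to 9.04 and 6.93 CPM in 1205Lu-R. APCDD1, a membrane inhibitor of the pathway, rose from 0.918 and 0.842 to 6.30 and 5.27 CPM in 1205Lu-R and had 19.3 to 23.5 CPM in the libraries of 451Lu-R. In 1205Lu-R, BMP4 and APCDD1 passed the filter through their counts with corin and so had to differ. TCF7, LEF1, LGR5, RNF43, ZNRF3, NOTUM and APCDD1 are in 2 of the lists, so the lists' counts are not separate evidence.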

How the data were processed

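Libraries were polyA RNA sequenced on an Illumina NextSeq. Per the study's methods, Trimmomatic served to trim the reads and salmon to quantify GENCODE 32 transcripts, which the authors summed to genes and tested with DESeq2. Versions of these tools are not given in the sources used here. What the authors deposited for the 8 libraries with corin or DMSO were salmon's expected counts, estimated per gene and not normalized. For the 8 samples with PLX4032 they deposited tables of their own log2 fold changes and adjusted p-values, which were not used. Members, lists and tests were chosen with earlier results of these data known. Every member may be named. Values in each library are given for members with a mean of at least 1 CPM in a group and an adjusted p under 0.05 in either line or between the lines' responses, and other genes are named where they passed the 4-fold threshold (at most 4 per list and line).

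Estimated counts were rounded and tested with edgeR 4.0.16 in R 4.3.3 (filterByExpr, TMM factors of 0.962 to 1.05, glmQLFit, glmQLFTest, 2-sided, Benjamini-Hochberg adjustment over all genes tested), in a fit of the 2 groups compared, or of all 8 libraries for the difference in response. CPM values are per library total without TMM. Lengths, positions and overlaps came from GENCODE 44 (GRCh38), which matched 34052 of the 34228 gene IDs. A group at 3 counts or fewer per library was taken as at the floor: against 0 counts a lower bound is given, and otherwise a ratio of summed counts with a 95% interval for counting error only. The scripts were tested on simulated data. Alternatives were DESeq2 1.42.0, other scalings and filters, a single fit of all libraries, the replicate number as a block and leaving out each library. Between same-numbered DMSO and corin libraries, the correlation of deviations from the group mean was -0.0056 (451Lu-R) and -0.0175 (1205Lu-R), and no label gives the number a meaning, so it was not used for pairing. Promoter windows were the 250 bases before each start in RefSeq (GRCh38.p14).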

Additional observations from a re-analysis of the deposited data

Results flagged for a closer look

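The response to corin differed between the lines, by the test of the difference itself (edgeR's quasi-likelihood test, adjusted p under 0.05), for 17 of the 36 members tested. Among all 16062 genes tested the share was 49.7%, so the count of members is near the background. Values are log2 differences, 1205Lu-R minus 451Lu-R.

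Among the ligands, the difference was -3.34 for WNT5A, -3.41 for WNT7B, -3.24 for WNT5B and 2.05 for WNT6. WNT7B, WNT5B and WNT6 rested on at most 4 estimated counts per DMSO library in a line, so the sizes of their differences are uncertain. When libraries were left out in turn, the difference ranged from -4.57 to -2.85 for WNT7B, from -5.54 to -2.47 for WNT5B and from 1.51 to 2.94 for WNT6. The adjusted p was 0.0179 for WNT5B and 0.0372 for WNT6. It passed the threshold no longer without the second DMSO (0.109) or second corin library (0.141) of 451Lu-R for WNT5B, and rose to as much as 0.187 (without the second DMSO library of 1205Lu-R) for WNT6.

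Among the receptors, it was -2.24 for FZD1, -1.44 for FZD2, -1.53 for FZD4, -0.93 for FZD7, -0.33 for LRP6 and -0.58 for RYK, and 0.99 for FZD3, 0.22 for FZD6, 0.74 for LRP5 and 5.16 for ROR2. ROR2 had 0 counts in 1205Lu-R with DMSO, so its size depends on the fit. The difference for LRP6 was lost under scaling by library size (-0.12, adjusted p = 0.187). That for FZD6 was lost with DESeq2 (adjusted p = 0.0786), without either DMSO library of 451Lu-R (0.0716 and 0.0699), without the second DMSO library of 1205Lu-R (0.193) and without its first corin library (0.150).

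Among the antagonists, it was -3.06 for DKK1, from 1 estimated count in each DMSO library of 451Lu-R, and -2.52 for SFRP1. Among the feedback inhibitors, it was 1.45 for NKD1.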

How the results depend on the processing

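Over the fold changes of the members under all alternatives, 1405 values kept their direction and their side of the threshold, 22 lost the threshold, 2 newly passed it and 8 changed sign. The 8 were differences that did not pass the test with all libraries. When libraries were left out in turn, AXIN2 ranged from -0.12 to 0.43 between the lines and from -0.54 to 0.01 for the difference in response, which ranged from -0.03 to 0.28 for ROR1, with the sign set by the second DMSO library of 1205Lu-R. The difference in response ranged from -0.19 to 2.89 for SFRP4, from -2.06 to 1.92 for WNT2B and from -1.30 to 3.26 for WNT4, with the sign set by the first DMSO library of 451Lu-R, and from -1.50 to 1.70 for NKD2, with the sign set by the second. DESeq2 put NKD2 at -0.11. FZD6, WNT5B and WNT6 lost the difference in response under DESeq2 (adjusted p = 0.0786, 0.0599 and 0.0790), and FZD5 gained it under scaling by library size (0.41, adjusted p = 0.0210).

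Counting only genes with at least 1 CPM in both DMSO libraries, 15 members rose in 451Lu-R, 4 of them by the 4-fold threshold, and 14 and 6 in 1205Lu-R, because fewer genes were counted. Members that fell in 451Lu-R numbered 0 with DESeq2, and 0 to 1 when libraries were left out. Members at least 4-fold lower in 1205Lu-R with DMSO numbered 1 with scaling by library size and 1 with all 8 libraries in a fit, and 0 to 1 when libraries were left out. The cause was not tested. With the longest transcript as length, the share of WNT5A with DMSO was 33.3% (451Lu-R) and 42.9% (1205Lu-R), that of WNT11 37.0% and WNT7B 48.4% with corin, and that of SFRP1 96.5% in 451Lu-R with corin, 73.6% in 1205Lu-R with DMSO and 52.9% with corin. The gene with the largest share was the same in these groups, but WNT5B ranked second in 1205Lu-R, with 31.3% with DMSO and 15.5% with corin. Among receptors in 1205Lu-R with DMSO, RYK (24.3%) replaced FZD1 (19.4%) as the gene with the largest share.

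With the replicate number as a block, the difference in response of WNT6 lost the threshold (2.05, adjusted p = 0.0501), and no other call of a member changed. The numbers share no stated meaning.

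At 9516687 to 11797788 counts per library, members that did not pass the filter on low counts were not tested, and their absence was not shown.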
